A study of Mus musculus with 6 samples.

Results

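miR-143 and miR-145 are miRNAs, short RNAs that guide Argonaute proteins to matching sites in mRNAs and so repress them, and both are best known from smooth muscle. All rows of the deposited miRNA-Seq table named miR-143 or miR-145, in any form, were taken, which gave 4 of 689 listed miRNAs: miR-143, miR-145 and the opposite strands of their hairpins, miR-143* and miR-145*. The rule uses names alone and no measured value. The libraries came from EMCMs, cardiomyocytes isolated from wild-type mouse embryos at E16.5, of the Swiss Webster stock by the labels and of the CD1 stock by the methods, and cultured on flexible plates coated with collagen. In the static group, 3 samples were kept without stretch for 24 hours, and in the stretch group, 3 samples were stretched cyclically by 16%, at a frequency of 1 Hz, over the same time. The cells were a primary culture, and no label names a sort or a purity.

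The question behind the study was which miRNAs respond to stretch. The values used here cannot answer it for miR-143 and miR-145, because they are the authors' mean over all samples. Values by group were held only as the authors' own comparison and were not analysed here. A mean abundance is given on a log2 scale, where a value is the logarithm of the share of miRNA reads, and as that share in percent. It has no SD and no n, since each miRNA has a single value over all samples, and no counting interval, since the depth per sample is unknown. In a bulk library, fewer cells of a type and less RNA per cell cannot be told apart.

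A miRNA hairpin is cut by Drosha and Dicer into a duplex, of which one strand is loaded into an Argonaute protein and kept while the other is mostly degraded. In the older naming used in the table, an asterisk marks the strand that was thought to be degraded. The hairpins of miR-143 and miR-145 lie next to each other and are known to be made from a shared primary transcript. That transcript is driven by serum response factor and its partner myocardin, and both miRNAs are known to promote the contractile state of vascular smooth muscle. In the embryo, the pair is also known from the early heart.

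In the GRCm38 annotation, Mir145a lies on chromosome 18 from 61647825 to 61647894 and Mir143 from 61649196 to 61649258, both on the minus strand. The hairpins are 70 and 63 bases long, and 1301 bases lie between them. Neither overlaps another annotated gene. Upstream of Mir143 on the same strand, 366 bases away, ends Carmn, a long noncoding RNA from 61649625 to 61665537 that is known as the host transcript of the pair. On the other side and on the opposite strand lies Bvht, a long noncoding RNA known from the commitment of cells to the cardiac lineage, which ends 352 bases from Mir145a. The deposited name miR-145 carries no letter, and RefSeq lists it as an older name of Mir145a.

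miR-143 was the second most abundant miRNA in the EMCM libraries. Its mean abundance was -2.91 on the log2 scale, or 13.3% of the miRNA reads. Only miR-22, a miRNA known from striated muscle, was listed above it, with 20.5% of the reads, which is 1.54 times the level of miR-143. The next below were miR-99b with 11.6% and miR-27b with 7.46% of the reads, and miR-127 held the fifth place with 7.15%.

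miR-145, its partner from the same transcript, had a mean abundance of -10.49 on the log2 scale. This is 0.0694% of the miRNA reads and rank 69 of 689, with 90.0% of the listed names lower. Its neighbours in the order were miR-208a-3p with 0.0747% and miR-484 with 0.0726% above, and miR-181c with 0.0683% and miR-221 with 0.0677% below. No error can be given for these levels, so the order among such close neighbours was not tested.

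The opposite strands were listed much lower. miR-145* had a mean abundance of -14.53 on the log2 scale, 0.00424% of the miRNA reads, at rank 200. It stood between miR-299 and miR-324-5p above and miR-1843b-5p and let-7e* below, with shares from 0.00406% to 0.00446%. miR-143* had a mean abundance of -16.90, 0.00082% of the reads, at rank 305, next to miR-301a*, miR-129-2-3p, miR-466g and miR-200c. All 4 strands lay above the median of the table, which was -17.86 on the log2 scale, miR-143* by 1.95-fold and miR-145* by 10.1-fold. They were also clear of the lowest values. The table breaks off at -24.52 and resumes 11.1 log2 units further down with 25 names, whose values are not read as levels here, and miR-143* was 198-fold above the upper edge of that gap. None of the members shared its value with another name.

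**Figure D1:**
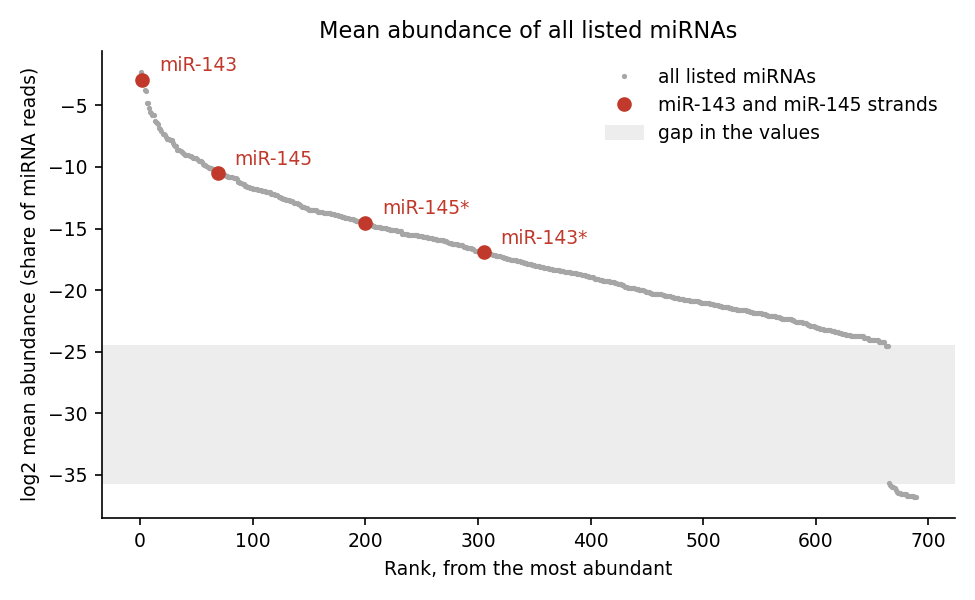
Log2 mean abundance (vertical axis, log2 of the share of miRNA reads) of the 689 listed miRNAs against their rank from the most abundant (horizontal axis), with grey points for all miRNAs, red points for the strands of miR-143 and miR-145 and a grey band for the gap in the values. miR-143 sits at rank 2 and miR-145, miR-145* and miR-143* at ranks 69, 200 and 305, all on the continuous part of the curve above -24.52.

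Together, the members held 13.4% of the miRNA reads. Of their reads, 99.4% were listed under miR-143, 0.518% under miR-145, 0.0316% under miR-145* and 0.00612% under miR-143*. Nearly all reads of the locus were listed under a single strand. Ligation and amplification differ between small RNAs, so this share and the ratios that follow compare reads and not molecules. The order of the hairpins was turned between the main and the opposite strands: miR-143 was 192-fold above miR-145, while miR-145* was 5.17-fold above miR-143*.

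The strand ratio, the higher over the lower strand of a hairpin, differed widely between the hairpins of the pair. miR-143 was 16247-fold above miR-143*, a log2 ratio of 13.99, while miR-145 was 16.4-fold above miR-145*, a log2 ratio of 4.03. These ratios were set beside all 238 pairs of strands in the table. The median log2 ratio over the pairs was 4.06, with quartiles at 1.85 and 7.69. miR-145 was at rank 121, next to the median, and miR-143 was at rank 12. In 9 of the 11 pairs listed above miR-143, the lower strand was one of the names below the gap. Without such pairs, a setting chosen after seeing the data, miR-143 was at rank 3 of 228 pairs. The pairs ahead of it were then miR-192, with a log2 ratio of 14.66, and miR-100, with 14.42. No strand of the pairs kept in that setting was below -24.52, so a pair of low abundance cannot reach the ratio of miR-143. The rank of miR-143 thus depends in part on its high abundance. Over all pairs as listed, the first places went to miR-182, miR-376c and miR-1933-3p, each against a strand below the gap.

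For both members, the strand without an asterisk was the higher one. This held for most hairpins with such names: the asterisked strand was listed higher in 15 of 168.

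The strand ratio of miR-143 was also compared with the most abundant pairs, and that of miR-145 with pairs of like abundance. The log2 summed abundance of the 10 most abundant pairs ran from -2.29 for miR-22 to -5.78 for let-7i, so not all were close to miR-143. Among them, the log2 strand ratio ran from 5.34 for miR-148a to 13.99 for miR-143, with a median of 9.96. The ratio of miR-22, the most abundant, was 12.58, and that of miR-191 was 12.36. miR-21, known from fibroblasts and cardiac stress, had 6.96. For miR-145, 29 pairs including its own lay within 2-fold of its summed abundance, and their log2 ratios ran from 0.26 to 12.97 with a median of 4.27. miR-145 was at rank 16 of these.

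**Figure D2:**
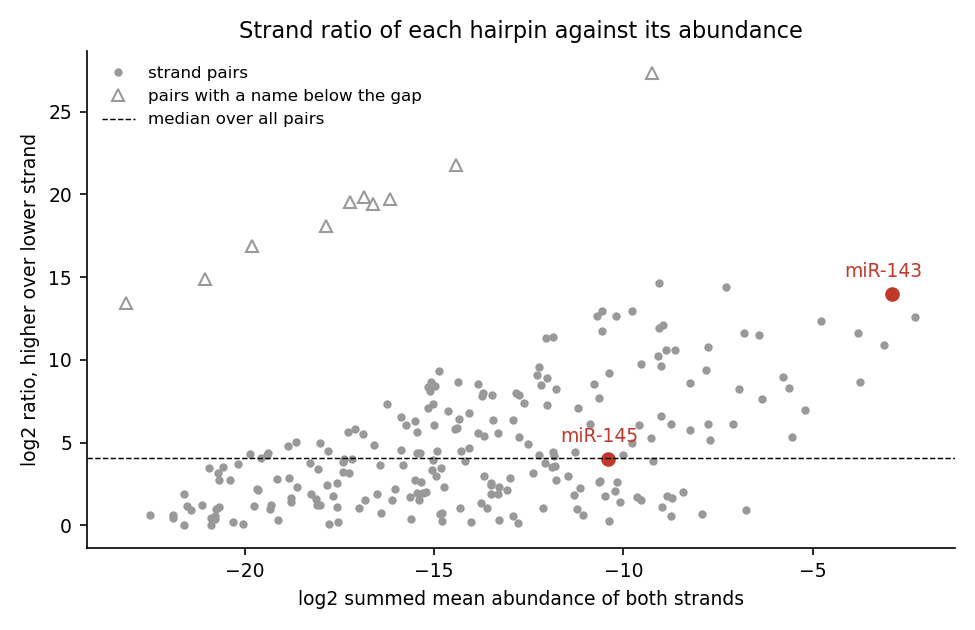
Log2 ratio of the higher over the lower strand (vertical axis) against the log2 summed mean abundance of both strands (horizontal axis) for 238 pairs, with triangles for pairs that include a name below the gap, red points for miR-143 and miR-145 and a dashed line for the median of 4.06. miR-143, at 13.99, lies at the upper right, and miR-145, at 4.03, lies on the dashed line.

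The distance between miR-143 and miR-145 was then compared with that in other clusters, groups of hairpins known to be transcribed together. For 28 clusters, the log2 range was taken from the most to the least abundant main strand. The main strand of a hairpin was set by name and was not always the more abundant one. miR-212-3p, at -18.17, was used although miR-212-5p was at -14.26, and miR-30e, at -13.49, although miR-30e* was at -10.85. The range was 7.59 for miR-143 and miR-145, the widest of the clusters on this list, where the median was 3.31, or 9.93-fold. It was followed by miR-16 and miR-15a with 7.10 and by miR-27b and miR-23b with 7.03. Among the 19 clusters listed with 2 main strands, the median was 3.31 too. The pair of cardiac miRNAs from shared transcripts, miR-133a and miR-1a, was apart by 2.23, and the closest cluster, miR-195 and miR-497, by 0.069. Several mature strands on the list, miR-16 and miR-133a among them, arise from more than one locus, so their level is not that of one cluster. When clusters were instead taken from the annotation, as listed hairpins on one strand within 10 kb of each other, miR-143 and miR-145 were at rank 8 of 38. The 7 ahead of them held from 2 to 35 names, where each name is the highest strand of a hairpin and is counted once. Some larger clusters were cut short by the matching of names to hairpins: miR-23a and miR-27a stood there without miR-24. Among the 24 annotated clusters with 2 names, they were at rank 2, behind miR-191 and miR-425 with 10.34, a pair not on the first list. The median log2 range was 3.45 over the 38 annotated clusters and 1.55 over the 24 with 2 names.

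**Figure D3:**
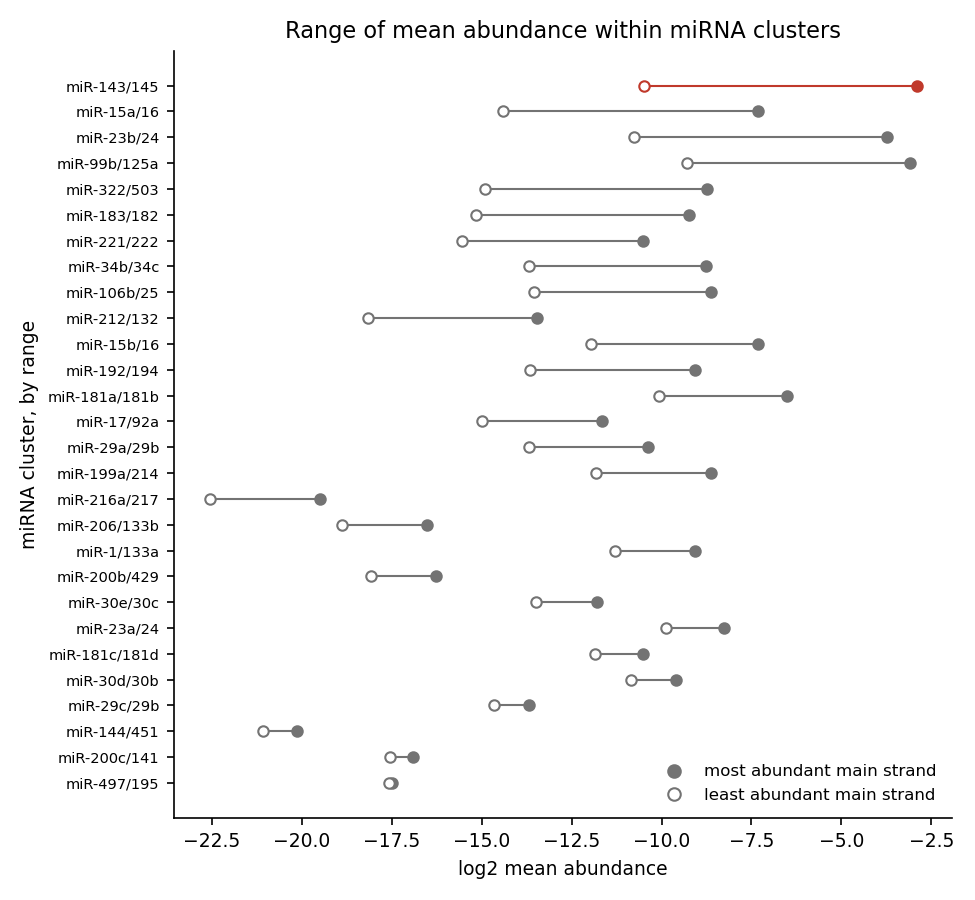
Log2 mean abundance (horizontal axis) of the most abundant main strand (filled) and the least abundant main strand (open) in each of 28 miRNA clusters (vertical axis, ordered by range), with miR-143 and miR-145 in red. The red line is the longest, from -10.49 to -2.91, and spans 7.59 log2 units.

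The labels name the cells as cardiomyocytes, and the levels of miR-143 and miR-145 were set beside miRNAs known from the cell types that a heart culture can hold. All 26 miRNAs on the lists of other cell types were listed above the gap in the values, and 0 of them were above miR-143. Of all 689 names, only miR-22 was above miR-143, and it was on none of the lists, so that count followed from the rank of miR-143. For miR-145, 7 were above it and 19 below it, where 90.0% of all listed names were below it.

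Of the 7 striated muscle miRNAs, 3 were above miR-145. miR-208b, which lies in an intron of the fetal myosin gene Myh7, had 1.17% of the miRNA reads, 16.9-fold more than miR-145. miR-133a had 0.186%, and miR-208a-3p, from an intron of Myh6, had 0.0747%. miR-1a, known as the leading miRNA of the adult heart, was listed at 0.0395%, which is 1.76-fold below miR-145 and 337-fold below miR-143. miR-499 had 0.0214%. miR-133b and miR-206, which are known from skeletal muscle, had 0.00106% and 0.000206%. The whole list summed to 1.50% of the reads, and miR-143 and miR-145 together held 8.96 times as much. That ratio depends on which miRNAs were listed. miR-22, also known from striated muscle, was not on the list and alone held 20.5% of the reads, against 13.4% for miR-143 and miR-145 together. Which cells the reads of miR-22 came from was not tested. miR-486, which the authors describe as enriched in striated muscle, was not on the list either. Its log2 mean abundance was -9.01, the same as that of miR-3107 and above the -10.49 of miR-145.

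The fibroblast and other mesenchymal list summed to 3.15% of the miRNA reads, above the 1.50% of the striated muscle list. Most of this was miR-21, which is broadly expressed and had 2.71% of the reads, 4.92-fold below miR-143. The order of the lists thus rests on miR-21 and on the absence of miR-22 from the striated muscle list. miR-199a-5p and miR-199a-3p, arms of miR-199a, which has a hairpin in the Dnm3os transcript, had 0.252% and 0.159%. The value of miR-199a-3p was the same as that of miR-199b, so it is not the level of a single hairpin. miR-214, also from the Dnm3os transcript, had 0.0279%. The endothelial list, miR-126-5p with 0.464% and miR-126-3p with 0.0129%, lay on both sides of miR-145 as well.

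All 6 miRNAs on the blood list and all 7 on the epithelial list were below miR-145, as were 90.0% of all listed names. These counts depend on which miRNAs were put on the lists. The highest of the blood list was miR-142-5p with 0.00749%, and miR-451, which marks red blood cells, had 8.69e-05%. The highest of the epithelial list was miR-429 with 0.00127%. The lists summed to 0.00853% and 0.00495% of the reads. No smooth muscle mRNA was measured in these libraries, so whether the reads of miR-143 came from smooth muscle cells, cardiomyocytes or other cells of the culture was not tested.

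**Figure D4:**
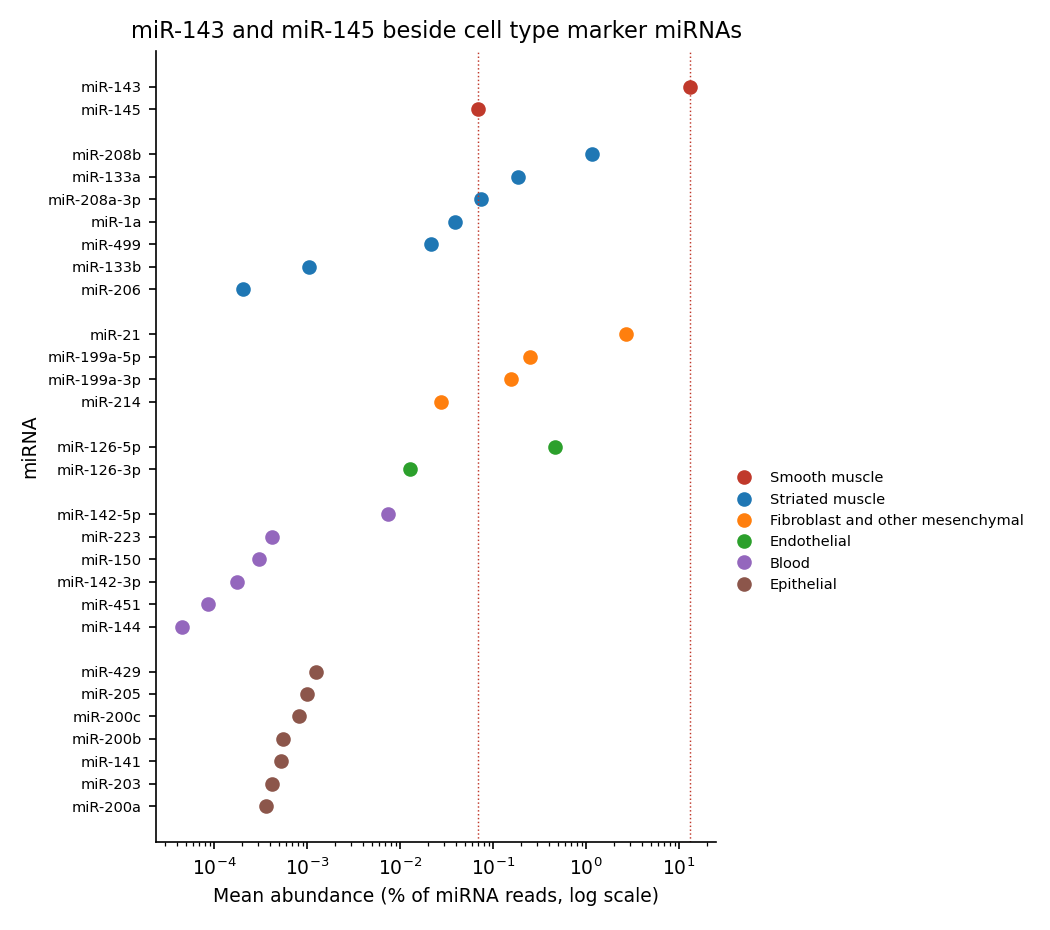
Mean abundance in percent of miRNA reads (horizontal axis, log scale) of miR-143, miR-145 and the 26 marker miRNAs of other cell types (vertical axis), coloured by list, with dotted lines at the levels of miR-143 and miR-145. miR-143, at 13.3%, is to the right of every marker. miR-145, at 0.0694%, lies among the striated muscle, mesenchymal and endothelial miRNAs and to the right of all miRNAs on the blood and epithelial lists. miR-22, which was on none of the lists, is not shown.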

How the data were processed

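Small RNA libraries were made with the TruSeq Small RNA protocol and sequenced on a HiSeq2500. According to the methods, the authors removed low-quality reads, kept tags within a set range of lengths and mapped them to the mouse genome with Bowtie2. They then added the counts that fell under one gene ID and used edgeR, while the submitters' processing notes name DESeq beside Bowtie2. How this adding treated the strands of a hairpin, which have separate names in the deposited values, is not stated. Versions, genome build, normalization and any filter on low counts are not given in the sources used here. The methods give a larger number of samples per group and another mouse stock, CD1, than the labels, which were followed.

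The authors deposited 1 mean abundance per miRNA, a logarithm whose column names no sample or group. How samples or groups were averaged in it is not stated. The value was read as a log2 share, because the 689 values sum to 0.995 on that base and to 0.302 and 0.00756 as natural logarithms and as log10. The other 4 columns, the log2 ratio of stretch to static, its signed linear form, the P value and the FDR, are the authors' own comparison and were not used. No statistical test was made.

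Shares, ranks, strand ratios and cluster ranges were computed from the mean abundance, and the code for them was checked on simulated data. Ligation and amplification differ between small RNAs, which affects levels compared between miRNAs. Hairpins were taken from GENCODE vM21 (GRCm38), and 631 of the 689 names were matched to a hairpin through RefSeq symbols. Sequences of these hairpins are not printed here. Named were the members, the miRNAs next to them in abundance, the 5 most abundant, the cell type markers and the leading strand pairs and clusters; the 10 most abundant pairs, the pairs near miR-145 and the other pairs named had their values known when they were picked. The members and lists were chosen with earlier results of these data known. Python 3.11.15, numpy 2.4.6, pandas 2.3.3 and matplotlib 3.10.9 were used.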

Additional observations from a re-analysis of the deposited data

How the results depend on the processing

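The share of miR-143, 13.3% of the miRNA reads, was 13.4% with all listed miRNAs rescaled to 100% (13.39), with identical miRNAs counted once (13.44) and with miRNAs below the median left out (13.39), and 16.9% with miR-22 left out of the total. That of miR-145, 0.0694%, was 0.0697%, 0.0700%, 0.0698% and 0.0878% in the same settings. miR-143 kept rank 2 except without miR-22, and miR-145 was at ranks 67 to 69. The strand ratio of miR-143, at rank 12 of 238 pairs, was at rank 4 of 119 among the more abundant pairs and at rank 3 of 228 without pairs that hold a name below the gap, a setting chosen after seeing the data. That of miR-145, at rank 121, was at rank 139 of 260 with numbered hairpin copies added, at rank 76 of 119 among the more abundant pairs and at rank 111 of 228 without names below the gap. The distance from miR-143 to miR-145 was 7.59 on the log2 scale and 7.50 with both strands of each hairpin summed, at rank 1 of 28 listed clusters in both cases and at rank 8 of 38 annotated ones. These changes follow from which names enter the total or the ranking. No paired analysis was possible because only means over all samples were used, and for the same reason no sample was left out in turn. The unknown depth limits the strands of low abundance most.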
